A study of Glycine max with 10 samples.

Results

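The lipoxygenases and the enzymes that follow them in jasmonate synthesis were followed through the floral transition of the soybean shoot apical meristem (SAM). Membership followed a rule on names, which took every soybean probe set whose annotated gene symbol starts with LOX (lipoxygenase), AOS or CYP74 (allene oxide synthase and its relatives), AOC (allene oxide cyclase), OPR (12-oxophytodienoate reductase) or HPL (hydroperoxide lyase). There were 27 such probe sets for 13 genes among 37593 soybean probe sets. Of these, 18 probe sets stood for 7 LOX genes, 5 for 3 AOS genes and 4 for 3 AOC genes. No symbol started with OPR or HPL. The annotation gives no symbol for 28546 soybean probe sets, so members of all of these families may be among them.

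SAMs were microdissected from cv. Bragg plants raised from seed in a glasshouse for 10 days (0 SD), or moved at that age to a chamber, lit for 10 h a day and held at 24°C, for 1, 2, 4 or 6 short days (SDs). Each time point had 2 biological replicates, each a pool of SAMs hybridized to 1 Affymetrix Soybean GeneChip, for 10 arrays in all. The tissue differed at 6 SDs, when the inflorescence meristem was cut out together with the floral meristem beside it, whereas samples of the earlier 4 time points held the SAM dome only. In each comparison with 0 SD, the photoperiod, the move to the chamber and the age of the plants cannot be told apart, and at 6 SDs neither can the tissue taken. In such bulk tissue, more or fewer cells of a type and more or less RNA per cell cannot be told apart either.

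Jasmonates are lipid hormones of plants, known for their part in wound responses and in the development of flowers, stamens above all. Their synthesis starts in the plastid, where a 13-lipoxygenase adds oxygen to linolenic acid, allene oxide synthase turns the hydroperoxide into an unstable epoxide, and allene oxide cyclase closes the ring to give 12-oxophytodienoic acid. Reduction by OPR and shortening of the side chain then take place in the peroxisome. Many lipoxygenases have no part in this route. In soybean some are known as abundant seed proteins and others as storage proteins of leaves.

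Values are the authors' log2 intensities, and a difference of 1 is a change of 2-fold. Tests with limma covered the 20366 soybean probe sets that were brighter than the array median on 2 or more of the 10 arrays. The words rose and fell are kept for changes with an adjusted p under 0.05 (Benjamini-Hochberg, over all 20366). Of the 27 members, 21 were tested, 13 of LOX, 4 of AOS and 4 of AOC, for 10 of the 13 genes. Probe sets of 1 gene are lettered from the brightest, and those of 1 gene can share or split its signal. The array medians lay between 7.31 and 7.46. The array of 6 SD replicate 2 stood apart in having an interquartile range of 3.60, against 3.94 to 4.02 on the other 9. The difference between 3′ and 5′ actin probe sets reads the completeness of the labelled RNA. The array holds more than 1 such pair, and the AFFX-r2-Gma-actin pair, used here, gave 0.89 to 1.64.

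At 6 SDs, 1 gene of each family had risen against 0 SD. These were LOX10, CYP74A1, an allene oxide synthase, and AOC6, an allene oxide cyclase, by 2.29-fold, 4-fold and 3.54-fold. No member fell. The count of 3 risen members among 21 stands beside 3.67% of all tested probe sets that rose in this comparison, 2.79% that fell and 6.46% in both directions. Over the 21 members the median log2 change was 0.32, with 18 above 0 and 3 below. Leaving out 1 array turned the sign of 3 of them, LOXB1 probe sets b and c and AOS2. The 21 stand for 10 genes and are not independent, with Pearson's r of 0.983 between LOX7 probe sets c and d. Over all 20366 tested probe sets the median was -0.13, with 7310 above 0 and 13056 below. That median was -0.07 with a further quantile normalization or a common median. The study itself selected AOC6 and CYP74A1 among its time course transcripts on these same arrays, so their rises are not independent of that choice.

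**Figure D1:**
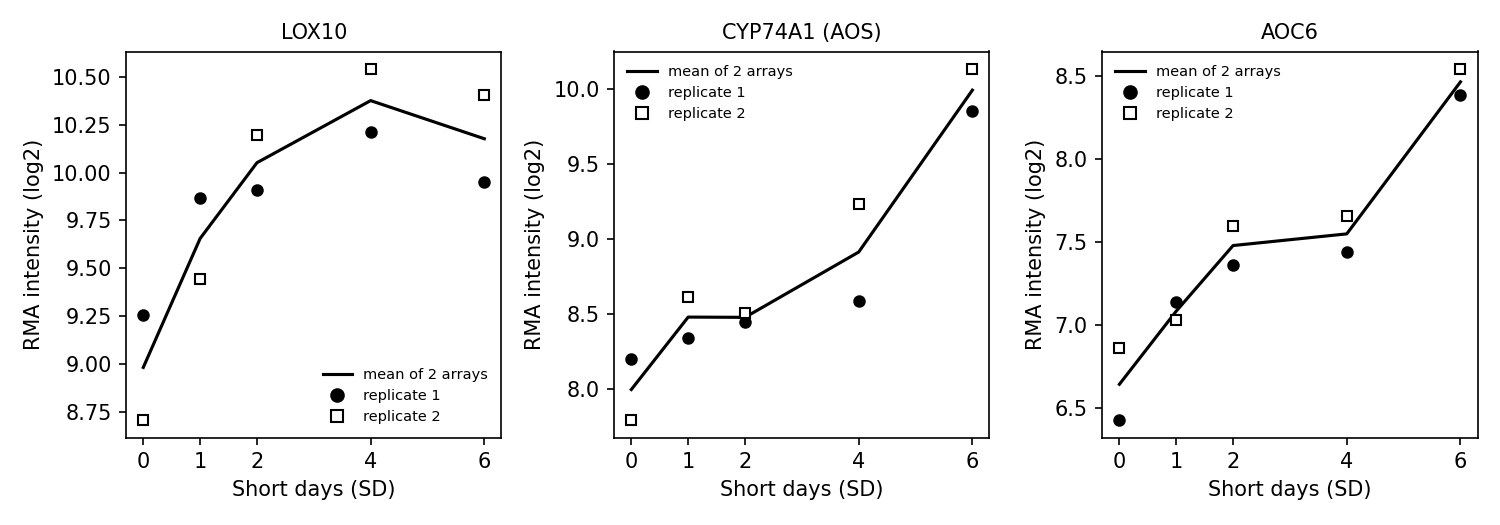
RMA log2 intensity (y axis, a separate range for each panel) against the number of short days (x axis) for LOX10, CYP74A1 and AOC6, with each array as a point and the mean of the 2 arrays as a line. CYP74A1 and AOC6 lie highest on both 6 SD arrays, at 9.85 and 10.14 and at 8.39 and 8.54, whereas LOX10 has its highest array, 10.54, at 4 SDs.

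LOX10 read 9.26 and 8.71 at 0 SD, 9.87 and 9.44 at 1 SD, 9.91 and 10.20 at 2 SDs, 10.21 and 10.54 at 4 SDs, and 9.95 and 10.41 at 6 SDs. Every chamber array was above both glasshouse arrays, both arrays of 2 SDs were below both of 4 SDs, and those of 6 SDs overlapped with each. At 6 SDs LOX10 averaged 10.18 ± 0.32, against 8.98 ± 0.39 at 0 SD (SD, n = 2 each), a log2 change of 1.20 (SE 0.26, limma adjusted p = 0.0321). The changes against 0 SD were 0.67 at 1 SD, 1.07 at 2 SDs and 1.39 at 4 SDs, with limma adjusted p-values of 0.590, 0.256 and 0.203, so none of these earlier changes passed the test. The 4 changes share the same 0 SD arrays.

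LOX10 passed the test over the whole time course (limma moderated F on a cubic polynomial, adjusted p = 0.0319), as did 875 tested probe sets, or 4.30%. Within the chamber it did not pass the test. There, 6 SDs against the mean of 1 and 2 SDs gave 0.32 with a 95% interval of -0.18 to 0.83 (limma adjusted p = 0.417). The rise at 6 SDs against 0 SD was lost without either array of 0, 1 or 4 SDs and without 6 SD replicate 2, with a range of 0.92 to 1.47 and adjusted p-values of 0.0212 to 0.136 over the 10 arrays left out in turn. It was also lost with array weights, where the limma adjusted p was 0.131.

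CYP74A1 is annotated with the cytochrome P450 family of allene oxide synthases. It read 8.20 and 7.79 at 0 SD, 8.34 and 8.62 at 1 SD, 8.45 and 8.51 at 2 SDs, 8.59 and 9.24 at 4 SDs, and 9.85 and 10.14 at 6 SDs. Both 6 SD arrays were above the other 8, and the 2 arrays of 4 SDs lay 0.65 apart. It averaged 9.995 ± 0.20 at 6 SDs, against 7.995 ± 0.29 at 0 SD (SD, n = 2 each), a log2 change of 2.00 (SE 0.24, limma adjusted p = 0.00453). The changes at 1, 2 and 4 SDs were 0.48, 0.48 and 0.92, none past the test.

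AOC6, one of the cyclases that make 12-oxophytodienoic acid, read 6.43 and 6.86 at 0 SD, 7.14 and 7.03 at 1 SD, 7.36 and 7.60 at 2 SDs, 7.44 and 7.66 at 4 SDs, and 8.39 and 8.54 at 6 SDs. Its arrays at 6 SDs were above all others, those of 2 and 4 SDs overlapped, and both glasshouse arrays were the lowest. It averaged 8.47 ± 0.11 at 6 SDs, against 6.64 ± 0.31 at 0 SD (SD, n = 2 each), a log2 change of 1.82 (SE 0.18, limma adjusted p = 0.00228). The changes at 1, 2 and 4 SDs were 0.44, 0.84 and 0.91 and did not pass the test. AOC6 exceeded the array median on only 4 arrays, both of 6 SDs and replicate 2 of 2 and of 4 SDs, so it entered the test through the time points at which it was high. With all 37593 probe sets tested its limma adjusted p was 0.00237.

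The comparison of 6 SDs with the mean of 1 and 2 SDs stays within the growth chamber and uses no glasshouse array. The number of short days, the time in the chamber, the age of the plants and the tissue taken cannot be told apart in it either. AOC6 and CYP74A1 rose in it and AOS1 probe set a fell, 3 of the 21 members beside 4.62% of all tested probe sets, of which 2.99% rose and 1.63% fell. CYP74A1 gained 1.52 (SE 0.21, 2.86-fold, limma adjusted p = 0.00737) and AOC6 gained 1.19 (SE 0.15, 2.27-fold, limma adjusted p = 0.00578). The rise of CYP74A1 here was lost without 6 SD replicate 2 (1.38, adjusted p = 0.0612) and with array weights (adjusted p = 0.0743), whereas that of AOC6 held without each array in turn, with adjusted p-values of 0.00609 to 0.0488.

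Both genes also passed the test over the time course, CYP74A1 with a limma adjusted p of 0.00740 and AOC6 with one of 0.00372. In the step between 4 and 6 SDs no member passed the limma test after adjustment, beside 0.491% of all tested probe sets that did. At an unadjusted p under 0.05 there were 2 members, and the share of all probe sets at that threshold was not counted. These 2 were AOC6, with 0.92 (adjusted p = 0.0785), and CYP74A1, with 1.08 (adjusted p = 0.109). Without 6 SD replicate 1 both passed, with adjusted p-values of 0.0357 and 0.0444.

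No member passed the limma test at 1, 2 or 4 SDs against 0 SD, where 0.167%, 0.137% and 0.0687% of all tested probe sets did. At an unadjusted p under 0.05 there were 3 members at each of these time points, all of them higher, and LOX10 and AOC6 were among the 3 each time. The remaining member was LOX9 probe set d at 1 SD, AOS1 probe set a at 2 SDs and CYP74A1 at 4 SDs. The share of all tested probe sets at this unadjusted threshold was not counted, so these counts have no background beside them. The 3 comparisons also share the 0 SD arrays. Between 1 and 2 SDs and between 2 and 4 SDs no member had an adjusted or an unadjusted p under 0.05. After adjustment, 0% and 0.00982% of all tested probe sets were called in these steps.

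**Figure D2:**
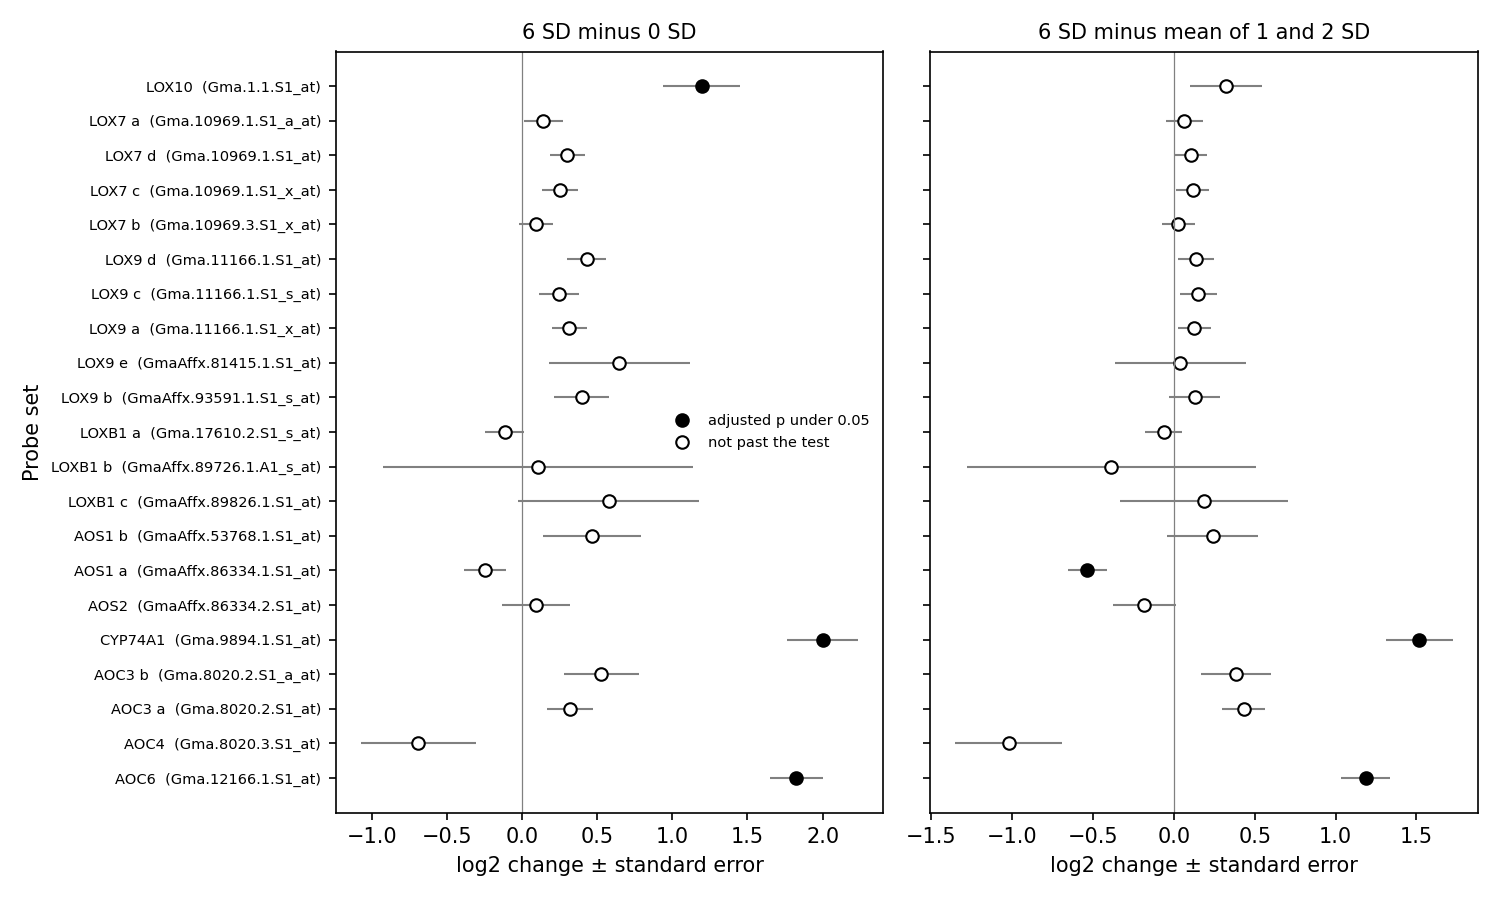
Log2 change with its standard error (x axis) for each of the 21 tested members (y axis) at 6 SDs against 0 SD (left) and at 6 SDs against the mean of 1 and 2 SDs (right), with filled points for an adjusted p under 0.05. CYP74A1 and AOC6 are filled at the right of both panels, LOX10 in the left panel only, and AOS1 probe set a at -0.54 in the right panel.

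Of the other lipoxygenases, LOX7 was bright and steady, LOX9 and LOXB1 had both steady and variable probe sets, and those known from seeds were dim. The 4 probe sets of LOX7 lay between 13.56 and 14.42 on all arrays, and their changes at 6 SDs against 0 SD were 0.09 to 0.30. They lay near the top of the scale, where the highest value on any array was 14.63. LOX7 probe set b had a range of 0.16 over the 10 arrays, and only 0.221% of tested probe sets had a smaller one.

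LOX9 had 5 probe sets, of which 4 were bright, between 12.32 and 13.84. They were all higher at 6 SDs than at 0 SD, by 0.25 to 0.43, and none passed the test. Probe set d came closest, at 12.86 and 12.72 at 6 SDs against 12.40 and 12.32 at 0 SD, a log2 change of 0.43 (SE 0.13, limma adjusted p = 0.0824). It passed when the arrays were brought to a common median (adjusted p = 0.0464), with a further quantile normalization (adjusted p = 0.0441) and with a robust prior that follows intensity (adjusted p = 0.0318). Among the bright ones, LOX9 probe set b was lowest on replicate 2 of 0 and 2 SDs, at 13.18 and 13.355, against 13.52 to 13.84 on the other arrays. Its change of 0.40 was as low as 0.23 with 1 array left out.

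LOXB1 is also listed in the reference annotation as lipoxygenase L-4 and as a vegetative storage protein. Its probe sets b, c and d ran alongside each other over the arrays, with Pearson's r of 0.857 to 0.919. Probe set a did not go with them, at -0.292 to -0.046. Probe set a was bright and steady, between 13.14 and 13.54 on the 10 arrays. Probe set b read 11.59 and 9.28 at 0 SD, 11.65 and 11.60 at 1 SD, 11.33 and 9.13 at 2 SDs, 10.99 and 11.37 at 4 SDs, and 11.87 and 9.21 at 6 SDs. It was thus low on replicate 2 of 0, 2 and 6 SDs and high on the other 7 arrays, so its replicates lay further apart than its time points, and 99.9% of tested probe sets had a smaller spread between replicates.

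LOXB1 probe set c was low on replicate 2 of 0 and 2 SDs, at 7.05 and 6.96, and read 8.20 to 8.71 on the other 8 arrays. LOX9 probe set e was lowest on the same 2 arrays, at 9.07 and 9.62, against 10.02 to 10.86 on the others. Outside the members, 4 of the 8 probe sets of VSPA, a vegetative storage protein, were lowest there too, and 1 of these read 10.48 and 10.66 on these 2 arrays and 11.43 to 12.08 on the other 8. The difference of the AFFX-r2-Gma-actin pair was at its highest on these arrays, 1.52 and 1.64, against 0.89 to 1.44 on the other 8. The 1.44 was that of 6 SD replicate 2, on which LOXB1 probe set b was low too. Another actin pair, AFFX-Gm_Actin, did not set both apart. Its 3′ and 5′ probe sets read 11.455 and 4.8 on 2 SD replicate 2, a narrower gap than 11.465 and 4.783 on 6 SD replicate 2. This pair cannot settle the matter, because its 5′ probe set was dim. It read 4.78 to 5.55 over the arrays, close to their 25th percentiles of 5.13 to 5.38. The part of RNA completeness in these values was not tested. None of these LOXB1 and LOX9 probe sets passed any comparison, and the 95% interval for LOXB1 probe set b at 6 SDs against 0 SD was -2.26 to 2.48.

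**Figure D3:**
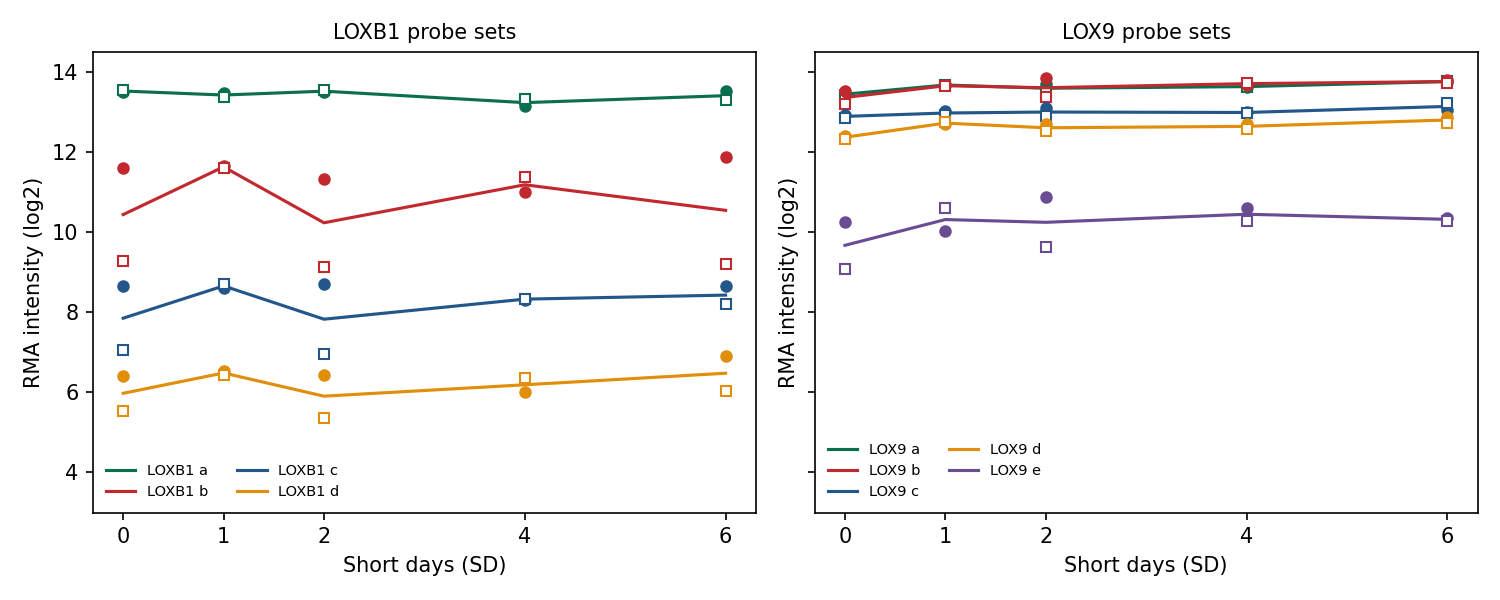
RMA log2 intensity (y axis) against the number of short days (x axis) for the LOXB1 (left) and LOX9 (right) probe sets, with replicate 1 as filled circles, replicate 2 as open squares and the mean of the 2 arrays as lines. The open squares of LOXB1 probe set b lie at 9.28, 9.13 and 9.21 at 0, 2 and 6 SDs, whereas probe set a stays between 13.14 and 13.54.

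The lipoxygenases known from soybean seeds were dim throughout. LOX1.1, LOX2 and LOX3, which encode the seed lipoxygenases L-1, L-2 and L-3, had 4 probe sets with values of 3.54 to 5.01, and none exceeded the array median on any of the 10 arrays. They were not tested, and neither were 1 probe set of LOXB1, at 5.37 to 6.91, and 1 of AOS1, at 4.16 to 4.85, which did not exceed the median on any array either. With no filter on brightness, none of these 6 probe sets passed the limma test at 6 SDs against 0 SD, with adjusted p-values of 0.253 to 0.986. In the RefSeq annotation of assembly Glycine_max_v4.0, LOX2, LOX1.1, LOXB1 and LOX7 are neighbours with 0 protein-coding genes between them. Intensities of different probe sets are not levels that can be set against each other.

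Among the AOS genes, the members differed in the sign of their change at 6 SDs. AOS1 probe set a read 9.07 and 9.11 at 0 SD, 9.32 and 9.28 at 1 SD, 9.43 and 9.47 at 2 SDs, 9.20 and 9.09 at 4 SDs, and 8.68 and 9.01 at 6 SDs. Its highest arrays were those of 1 and 2 SDs and its lowest those of 6 SDs. At 6 SDs it averaged 8.84 ± 0.23 (SD, n = 2), against means of 9.30 at 1 SD and 9.45 at 2 SDs, a log2 change of -0.54 (SE 0.12, 95% interval -0.81 to -0.26, limma adjusted p = 0.0463). This call was lost without any single array other than 6 SD replicate 2, with a range of -0.70 to -0.37 and adjusted p-values of 0.0408 to 0.158, and under another scaling of the arrays, with adjusted p-values of 0.112 and 0.111 for a further quantile normalization and a common median. Against 0 SD the same probe set changed by -0.25 (adjusted p = 0.278).

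AOS1 probe set b exceeded the array median on 2 arrays only and read 7.09 and 7.73 at 6 SDs against 7.34 and 6.54 at 0 SD. The 2 probe sets of AOS1 therefore differ in sign at 6 SDs against 0 SD, at -0.25 and 0.46, neither past the test. AOS2 read 7.24 and 7.40 at 6 SDs against 7.50 and 6.95 at 0 SD, a log2 change of 0.09 with a 95% interval of -0.43 to 0.61. The change of CYP74A1 exceeded that of these 3 probe sets by 1.54 to 2.25 at 6 SDs against 0 SD and by 1.28 to 2.05 against 1 and 2 SDs, values given as a description with no test of the difference.

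**Figure D4:**
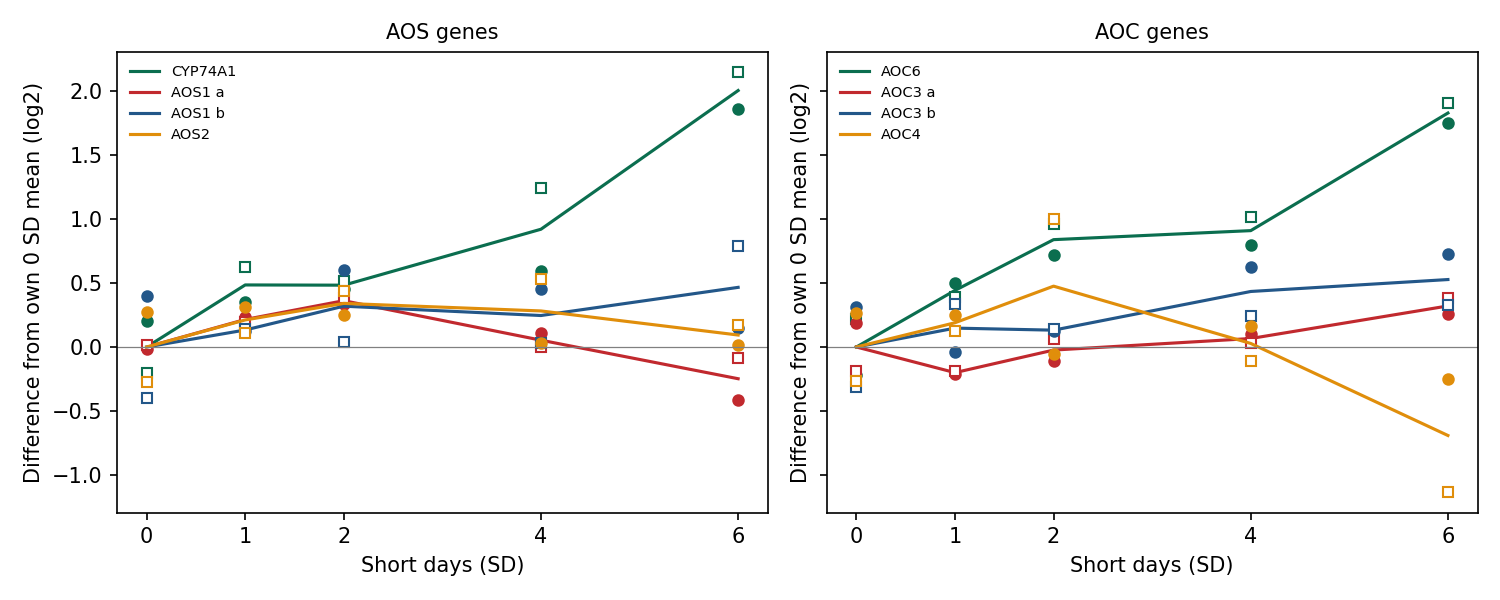
Difference from each probe set's own 0 SD mean on the log2 scale (y axis) against the number of short days (x axis) for the tested AOS (left) and AOC (right) probe sets, with replicate 1 as filled circles, replicate 2 as open squares and means as lines. At 6 SDs the CYP74A1 and AOC6 means stand at 2.00 and 1.82, AOS1 probe set a at -0.25 and AOC4 at -0.69.

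The AOC genes were spread in the same way. AOC3 had 2 probe sets. Probe set a read 11.25 and 11.38 at 6 SDs against 11.18 and 10.81 at 0 SD, a log2 change of 0.32 (SE 0.15, limma adjusted p = 0.210), and probe set b gave 0.53 (SE 0.25, adjusted p = 0.209). Against 1 and 2 SDs these probe sets changed by 0.43 (adjusted p = 0.113) and 0.39 (adjusted p = 0.330), again short of the test.

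AOC4 had its lowest array at 6 SDs. It read 8.99 and 8.46 at 0 SD, 8.98 and 8.85 at 1 SD, 8.67 and 9.73 at 2 SDs, 8.89 and 8.62 at 4 SDs, and 8.47 and 7.60 at 6 SDs. The 2 arrays of 6 SDs differed by 0.88 and those of 2 SDs by 1.05, and the higher 6 SD array lay 0.01 above the lower glasshouse array. The change was -0.69 against 0 SD (95% interval -1.57 to 0.19, limma adjusted p = 0.274) and -1.02 against 1 and 2 SDs (adjusted p = 0.132), which passed only without 6 SD replicate 1 (-1.46, adjusted p = 0.0408). The change of AOC6 exceeded that of AOC4 by 2.52 and those of the AOC3 probe sets by 1.3 and 1.5 at 6 SDs against 0 SD, with no test of the difference.

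CYP74A1 and AOC6 ran alongside each other over the 10 arrays, with Pearson's r of 0.910, and LOX10 ran less closely with them, at 0.670 and 0.705. These coefficients describe 10 arrays that share 5 time points. A search for like profiles covered only 947 of the 20366 tested probe sets, those with 1 gene symbol other than a locus number. Among these, those most like AOC6 were PAP25, a purple acid phosphatase, with r of 0.977 and 0.967 for 2 probe sets, CRK5 (0.974), SABATH1, named for a family of methyltransferases that includes jasmonate methyltransferases of other plants (0.964), and COL2A, a CONSTANS-like gene (0.962). Those most like CYP74A1 were GH (0.966), R1 (0.963), PTF1 (0.960), another PAP25 probe set (0.960) and BZIP1, a bZIP transcription factor (0.957). All 10 of these probe sets rose at 6 SDs against 0 SD, by 1.12 to 4.05 on the log2 scale, which follows from their choice by likeness to genes that rose on these arrays.

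Upstream of the lipoxygenases, the fatty acid desaturases that supply linolenic acid had 13 probe sets, of which 7 were tested. Beside 2.79% of all tested probe sets that fell at 6 SDs against 0 SD and 3.67% that rose, 1 of the 7 fell and none rose. It was FAD3B, an omega-3 desaturase that makes linolenic acid, at 8.67 and 8.85 at 6 SDs against 9.58 and 9.68 at 0 SD, a log2 change of -0.87 (SE 0.13, limma adjusted p = 0.00884). The call was lost without either 0 SD array, with adjusted p-values of 0.0562 and 0.0513. Against 1 and 2 SDs, 1 rose and none fell: its paralogue FAD3C read 8.48 and 8.58 at 6 SDs, against 7.29 and 7.53 at 1 SD and 7.38 and 7.66 at 2 SDs, a log2 change of 1.06 (SE 0.15, adjusted p = 0.00762), which was lost without 6 SD replicate 2 (adjusted p = 0.0573). In that comparison 2.99% of all tested probe sets rose and 1.63% fell. Against 0 SD, this FAD3C probe set changed by 0.62 (adjusted p = 0.0685). Another FAD3C probe set was too dim to be tested, at 3.80 to 4.13. With no filter it changed by 0.05 against 1 and 2 SDs (limma adjusted p = 0.823). FAD3B changed by -0.42 against 1 and 2 SDs (limma adjusted p = 0.0746), short of the test. The tested probe sets of FAD8.2, another desaturase of the list, changed by -0.13 (adjusted p = 0.516) and 0.15 (adjusted p = 0.6005) at 6 SDs against 0 SD.

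Downstream, the list of conjugation, perception and signalling genes had 7 probe sets, 6 of them annotated as COI1, the F-box receptor of jasmonate, and 3 were tested. Beside 3.67% of all tested probe sets that rose at 6 SDs against 0 SD and 2.79% that fell, 1 of the 3 rose and none fell. This was a COI1 probe set, at 9.91 and 10.17 at 6 SDs against 9.19 and 9.16 at 0 SD, a log2 change of 0.87 (SE 0.15, limma adjusted p = 0.0174), which was lost without either 0 SD array or without 6 SD replicate 2, with adjusted p-values of 0.0961, 0.0773 and 0.0588. Against 1 and 2 SDs it rose by 0.71 (adjusted p = 0.0233) and another COI1 probe set by 0.66 (adjusted p = 0.0239). Both were lost without any single array of 1 or 2 SDs and without 6 SD replicate 2, with adjusted p-values up to 0.141 and 0.131. Of all tested probe sets, 2.99% rose and 1.63% fell against 1 and 2 SDs. The remaining tested COI1 probe set passed neither comparison. It changed by 0.33 against 0 SD (limma adjusted p = 0.288) and by 0.36 against 1 and 2 SDs (adjusted p = 0.246). No symbol matched the list of peroxisomal beta-oxidation genes.

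A list meant for genes that respond to jasmonate or wounding, found by symbols that start with VSP, KTI, PIN2 or WIN, had 15 probe sets and 10 tested. It was set by symbol alone, and whether PIN2A and WIN respond in soybean is not known from the sources used here. None passed the limma test at 6 SDs against 0 SD, against 1 and 2 SDs or over the time course. Their median log2 change at 6 SDs against 0 SD was 0.34, with 8 above 0 and 2 below. Most of the 10 are probe sets of 1 gene, VSPA, and the count rests in part on 1 array, 0 SD replicate 2. There 1 VSPA probe set read 10.48, against 11.90 on 0 SD replicate 1 and 11.82 and 11.77 at 6 SDs. Another did not depend on that array, at 12.88 and 12.86 at 0 SD and 13.02 and 13.82 at 6 SDs. KTI3, a Kunitz trypsin inhibitor, was too dim to be tested. It is named after its values were seen, for reading 6.94 and 7.25 at 6 SDs against 4.74 and 4.68 at 0 SD, and 4.52 to 5.14 at the time points between. With no filter its log2 change was 2.38 (SE 0.20, limma adjusted p = 0.00133). The other probe sets with symbols that start with KTI did not go with it. KTI-2 changed by 0.00 and the KTI-3 probe sets by -0.20 and -0.17, none past the test. KTI1, also too dim to be tested, changed by -0.03.

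The probe sets of VLXB and VLXC, lipoxygenases whose symbols lie outside the naming rule, and 1 probe set shared by VLXB, LOX7 and LOXB1 were tested as well, and none of these 4 passed. VLXB read 13.99 and 13.76 at 6 SDs against 13.25 and 13.23 at 0 SD with 1 probe set, a log2 change of 0.64 (SE 0.16, limma adjusted p = 0.0580). Its other probe set gave 0.63 (adjusted p = 0.0562). All 4 probe sets were above 0 at each time point against 0 SD.

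Markers of the tissue moved with the late time points. All 3 floral meristem markers, AP1, FRUITFUL and SEP3, rose at 6 SDs against 0 SD, and their summed level, as the log2 of the summed intensities, was 12.9 to 13.2 at 6 SDs, 10.1 to 11.4 at 4 SDs, 7.46 to 7.94 at 2 SDs, 6.81 to 6.87 at 1 SD and 6.69 to 6.90 at 0 SD. Of the meristem markers STM, KNAT2 and KNAT4, 2 of 3 rose, and the summed level was 12.2 to 12.4 at 6 SDs against 11.0 to 11.2 at 0 SD. The study named these 6 after selecting on the same arrays. Markers of leaf and photosynthetic tissue had 12 probe sets and 11 tested, of which none rose or fell at 6 SDs against 0 SD, with changes of -0.40 to 0.73 and a summed level of 15.3 to 15.7 at 6 SDs against 15.5 to 15.7 at 0 SD. They included CAB3, bright on all arrays, and none but 1 dim CAB3 probe set was near the bottom of the scale. The part of the floral and meristem tissue in the rises of CYP74A1 and AOC6 was not tested.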

How the data were processed

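RNA of soybean SAMs was measured on 10 Affymetrix arrays, 2 at each of 5 time points. Deposited were log2 intensities from the authors' RMA, in which background is removed, probes are summarized per probe set and quantile normalization draws the arrays to a common distribution. Controls and rRNA were left out, leaving 37593 of 37746 entries. Present and absent calls were not used here.

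Time point means were estimated in limma 3.58.1 in R 4.3.3 (5 residual degrees of freedom), with Benjamini-Hochberg adjustment over the 20366 probe sets above the array median on at least 2 arrays and a threshold of 0.05. A cubic polynomial was tested by a moderated F. The steps were tested on simulated data. The labels call the samples biological replicates, and their number limits the precision. Alternatives were other filters, scalings and priors, array weights, a replicate block, time point as a factor and leaving out each array in turn, where a lone array is assumed to vary like the others.

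Gene names come from the platform annotation, which names 9047 probe sets, and all 13 genes matched RefSeq by gene ID. Members past any test and those the study selected were named with all array values, and the others by range. LOXB1 probe set b and AOC4, which passed no main test, were given with all array values outside this rule. For AOC6 and CYP74A1, the 5 most correlated probe sets of 947 are named. Members and lists were chosen with earlier results of these data known. Differences between probe sets carry no p. Exact permutation tests of such pairs, arrays of 4 and 6 SDs against the rest, were run on 9 pairs around the members that rose and then, once those p-values were known, on 12 pairs within AOS and AOC. Pairs and grouping had been chosen after the values were seen, so neither set of p-values is reported.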

Additional observations from a re-analysis of the deposited data

How the results depend on the processing

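There were 17 alternatives for each comparison of time points and 18 for the time course. AOC6, CYP74A1, LOX10 and AOS1 probe set a kept their direction under all 17 at 6 SDs against 0 SD and against 1 and 2 SDs. Over all 21 tested members, leaving out 1 array turned the sign of 3 in the first of these comparisons and of 7 in the second, none of them past the test. AOC6 and CYP74A1 passed at 6 SDs against 0 SD under all of them, whereas the rise of LOX10 there and the fall of AOS1 probe set a against 1 and 2 SDs did not hold under all. Member counts moved by more than 1.5 times in these cases: 6 in place of 3 at 6 SDs against 0 SD with an intensity trend and robust prior (with LOX7 and 2 LOX9 probe sets added), and, with array weights, 1 in place of 3 at 6 SDs against 1 and 2 SDs and 6 in place of 3 over the time course. The weights did not converge, and with them 7030 of 20366 probe sets were called over the time course. Replicate numbers were not used as pairs, since same-numbered arrays deviated from their time point means with correlations of 0.193 to 0.618 among 0, 2, 4 and 6 SDs and -0.368 to -0.074 with 1 SD. A replicate block, with the numbers as labelled, gave 1 member, AOC6, between 4 and 6 SDs in place of 0, and changed no other member count. A block with the numbers exchanged at 1 SD was not run, so an effect shared by replicates in that order was not tested. Leaving out each array gave 2 to 3 members at 6 SDs against 0 SD, against 1 and 2 SDs and over the time course, and 0 to 2 between 4 and 6 SDs. LOX10 passed the time course without only 2 of the 10 arrays. The median change of all tested probe sets at 6 SDs against 0 SD was -0.129. With 2 arrays for each time point, a median standard error of 0.178 limits which changes could be called.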
